A study of Mus musculus with 18 samples.

Results

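The genes described here encode the enzymes and transporters through which glucose carbon is taken up, split to pyruvate, passed on to lactate or the tricarboxylic acid (TCA) cycle, or diverted into the pentose phosphate branch. They are 43 genes named by their place in these pathways, not chosen by a threshold on their values. Of these, 40 had an array probe set that carried a single gene symbol, among 18194 genes with such a probe set on the array. Eno1 (enolase), Gpi1 (glucose-6-phosphate isomerase) and G6pdx (glucose-6-phosphate dehydrogenase) had none and were not analysed here. The values come from 18 mice with 1 Affymetrix mouse 430 array each. In 8 CD4Cre-Ctnnbex3 mice the RNA came from lymphomas, in 5 CD4Cre-Ctnnbex3 mice it came from thymocytes before T-cell transformation, and in 5 controls it came from thymocytes. The controls are described as LckCre mice in the design text and as wild type in the sample labels, and the other groups carry no Lck-driven Cre in their labels. In CD4Cre-Ctnnbex3 mice, Cre driven by Cd4 regulatory sequences removes exon 3 of Ctnnb1 in developing T cells, which leaves a beta-catenin that resists degradation. The labels used here give no ages, and no untransformed tissue of the lymphoma-bearing mice was analysed here. The question of the study was how expression differs before and after transformation.

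Glycolysis converts glucose to pyruvate in the cytosol, and several of its steps can be carried out by alternative isozymes encoded by separate genes. Pyruvate is either reduced to lactate and exported, or enters mitochondria, where the pyruvate dehydrogenase complex feeds it into the TCA cycle. The pentose phosphate pathway branches off after the first step and yields NADPH and the ribose of nucleotides. Activated and dividing T cells, and thymocytes that expand after beta-selection, are known for strong glycolysis, for which Myc and the hypoxia-inducible factors are well-studied transcriptional regulators.

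Markers of thymocytes were present in every group, but their summed intensity over 7 measured genes ranged from 11278 to 22616 in lymphomas, from 30023 to 48115 before transformation and from 37003 to 41854 in controls. All 7 were lower in lymphomas in both comparisons, and Ptcra, the pre-T-cell receptor alpha chain, was at the lower limit of measurement (the floor, 53.5) in every lymphoma. The summed intensity of 8 macrophage markers ranged from 5973 to 19207 in lymphomas, from 1792 to 4885 before transformation and from 3034 to 4716 in controls. Of these markers 4 were called higher and 1 lower in lymphomas against mice before transformation, and 5 higher and 2 lower against controls. Over all genes 34.5% and 40.2% were called in these comparisons. Fibroblast and vessel markers (8 genes) ranged from 1328 to 7191 in lymphomas, from 1324 to 2207 before transformation and from 1143 to 1454 in controls, and lymphoma 8 was the highest for both lists. B-cell markers (4 genes) ranged from 478 to 4485 in lymphomas, from 471 to 2073 before transformation and from 857 to 1134 in controls. Lymphoma 3 had the highest B-cell and the lowest thymocyte sum of all mice. Proliferation markers (7 genes) ranged from 14291 to 28169 in lymphomas, from 19053 to 29993 before transformation and from 24667 to 29072 in controls. Xist and Eif2s3y signals were female in controls 1 and 2 and in 6 lymphomas, male in lymphoma 3, in controls 3 to 5 and in all 5 mice before transformation, and both were present in lymphoma 4. The part of these marker and sex differences in the results below was not tested, apart from the sex term given there.

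Lymphomas were first compared with thymocytes of the same genotype before transformation. One of the measured glucose transporters, Slc2a3, was higher in lymphomas, as were enzymes of several glycolytic steps, led by hexokinase 2 (Hk2), triosephosphate isomerase (Tpi1) and phosphoglycerate mutase (Pgam1), together with transketolase (Tkt) and the succinyl-CoA ligase subunit Suclg2. Lactate dehydrogenase B (Ldhb) and hexokinase 1 (Hk1) were lower, and lactate dehydrogenase A (Ldha) did not pass the test. All 40 measured members passed the filter on low signal. At an adjusted p under 0.05 in limma, 17 were higher, 4 lower and 19 not called, while 16.1% of the 14019 genes tested were higher and 18.5% lower (34.5% in all). Quantile normalization moved these counts to 21 higher and 2 lower. The median difference of the members was 0.24 on the log2 scale, against -0.03 over all genes tested. In 12 of the members called higher and 2 called lower the groups did not overlap, which held for 6.76% and 8.88% of all genes (15.6% together). With sex by signal as a covariate and without lymphoma 4, only lymphoma 3 shared the sex signal of the mice before transformation. In this comparison a value with the sex term is thus lymphoma 3 minus the mean of those mice. It cannot separate sex from the choice of tumour. Where a call was lost with the sex term, the lost value is that of lymphoma 3, while the reported call came from the full group of lymphomas. Slc2a3, Pfkl, Aldoa, Tpi1, Pkm, Suclg2 and Fh1 lost the call only with the sex term and kept it when lymphoma 3 was left out. Idh2 and Suclg1 also lost the call when lymphoma 3 was left out. Lymphoma 3, itself part of the calls, lay outside the range before transformation on the called side for 21 of 21 called members. The same held for 90.4% of all called genes. These are bulk samples, in which fewer cells of a type and less RNA per cell cannot be told apart.

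**Figure D1:**
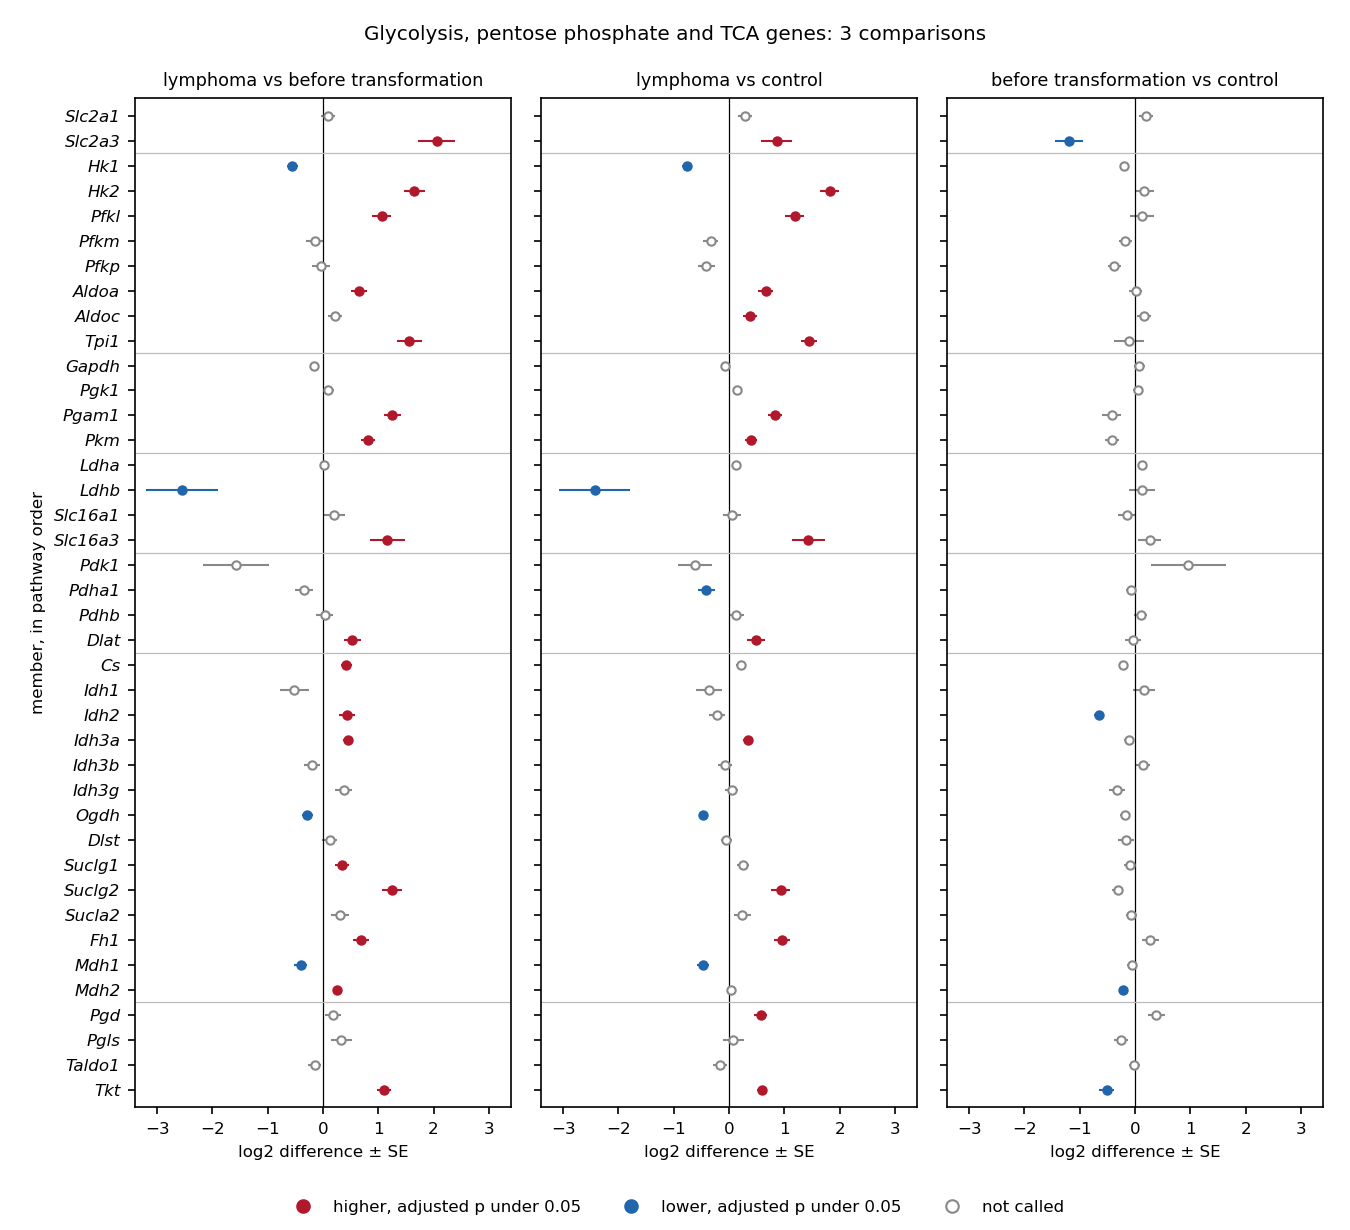
Log2 difference ± SE of each of the 40 measured members, in pathway order from top to bottom, in the 3 comparisons. Red points passed the test as higher and blue points as lower in the group named first, and open points did not pass. Most points in the left and middle panels lie right of 0, with Ldhb far to the left, and only 4 points in the right panel are filled.

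Glucose enters these cells through facilitative transporters. Slc2a3 (GLUT3), the high-affinity transporter, had 524, 1124 and 1637 intensity units in the lowest, median and highest lymphoma. Before transformation it had 203, 275, 460, 165 and 167 units in mice 1 to 5. Every lymphoma lay above every mouse before transformation, with lymphomas 5, 7 and 3 the lowest. The difference was 2.06 ± 0.33 on the log2 scale (SE, 4.16-fold, limma adjusted p = 0.000357), and for lymphoma 3 alone (the sex term) it was 1.45. Slc2a1 (GLUT1), the basal transporter, was not called at 0.09 with a 95% interval of -0.18 to 0.36. Its next brightest probe set gave 0.71 and passed, so Slc2a1 depends on the probe set chosen.

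The first step inside the cell, the phosphorylation of glucose, is shared by hexokinases. Hk2, the inducible and largely mitochondria-bound isozyme, had 255, 425 and 505 units in the lowest, median and highest lymphoma. The mice before transformation had 144, 108, 171, 103 and 110 units. The groups did not overlap, and lymphomas 7 and 5 were the lowest of the tumours. Hk2 rose by 1.65 ± 0.19 (3.14-fold, limma adjusted p = 2.25e-05) and stayed called under all 26 alternatives run, over which it ranged from 1.58 to 1.84. Hk1, the constitutive isozyme, had 572 to 771 units in lymphomas and 883 to 1073 before transformation, without overlap, and fell by 0.56 ± 0.10 on the log2 scale (adjusted p = 0.00062). The call for Hk1 was lost among mice 1 and 2 alone (adjusted p = 0.0871).

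Phosphofructokinase commits glucose to glycolysis and is built from liver, muscle and platelet-type subunits. Pfkl, the liver-type subunit, had 715, 996 and 1310 units in the lowest, median and highest lymphoma. It had 644, 575, 434, 349 and 382 units before transformation, below every lymphoma. The rise was 1.06 ± 0.18 (2.09-fold, limma adjusted p = 0.000419), against 0.90 with the sex term (adjusted p = 0.183). Its other probe sets gave 0.64 and -0.22. The muscle-type Pfkm (-0.15, interval -0.48 to 0.17) and the platelet-type Pfkp (-0.04, interval -0.40 to 0.32) were not called.

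Aldolase splits the resulting fructose bisphosphate into triose phosphates, which Tpi1 interconverts. Aldoa, the main aldolase outside liver and brain, rose by 0.65 ± 0.14, with 1663 to 2720 units in lymphomas and 1198 to 1613 before transformation and no overlap. For lymphoma 3 alone (the sex term) Aldoa stood at 0.34. The brain-type Aldoc was not called (0.22, interval -0.04 to 0.48). Tpi1 had 1802, 2218 and 3078 units in the lowest, median and highest lymphoma. It had 864, 1320, 981, 412 and 603 units before transformation, where mouse 4 was the lowest and mouse 2 the highest. All lymphomas lay above that range, and the rise was 1.56 ± 0.23 (2.96-fold, limma adjusted p = 0.000171), or 1.37 for lymphoma 3 alone (the sex term).

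Of the later steps, 2 of 4 measured enzymes were called. Pgam1, which moves the phosphate of phosphoglycerate, had 1596, 2129 and 2515 units in the lowest, median and highest lymphoma. It had 927, 877, 1329, 712 and 728 units before transformation. The ranges did not overlap, with lymphoma 7 the lowest tumour, and the rise was 1.26 ± 0.15 (2.39-fold, limma adjusted p = 2.7e-05). Pkm, the pyruvate kinase of most dividing cells, had 3668, 4095 and 5486 units in the lowest, median and highest lymphoma. Its values before transformation were 2423, 2655, 3102, 1977 and 2127 units. Again no lymphoma overlapped, and Pkm rose by 0.81 ± 0.12 (1.75-fold, adjusted p = 0.000231), or 0.60 with the sex term (adjusted p = 0.198). Splice forms of Pkm were not separated.

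The enzymes between these, Gapdh (glyceraldehyde-3-phosphate dehydrogenase) and Pgk1 (phosphoglycerate kinase), were not called. Gapdh, read from the array's own control probe sets, had 6792 to 8150 units in lymphomas and 7112 to 9089 before transformation (-0.16, interval -0.32 to 0.01). Pgk1 had 4109 to 5601 units in lymphomas and 3979 to 5373 before transformation (0.09, interval -0.11 to 0.30), and it passed as higher only after quantile normalization (0.37).

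**Figure D2:**
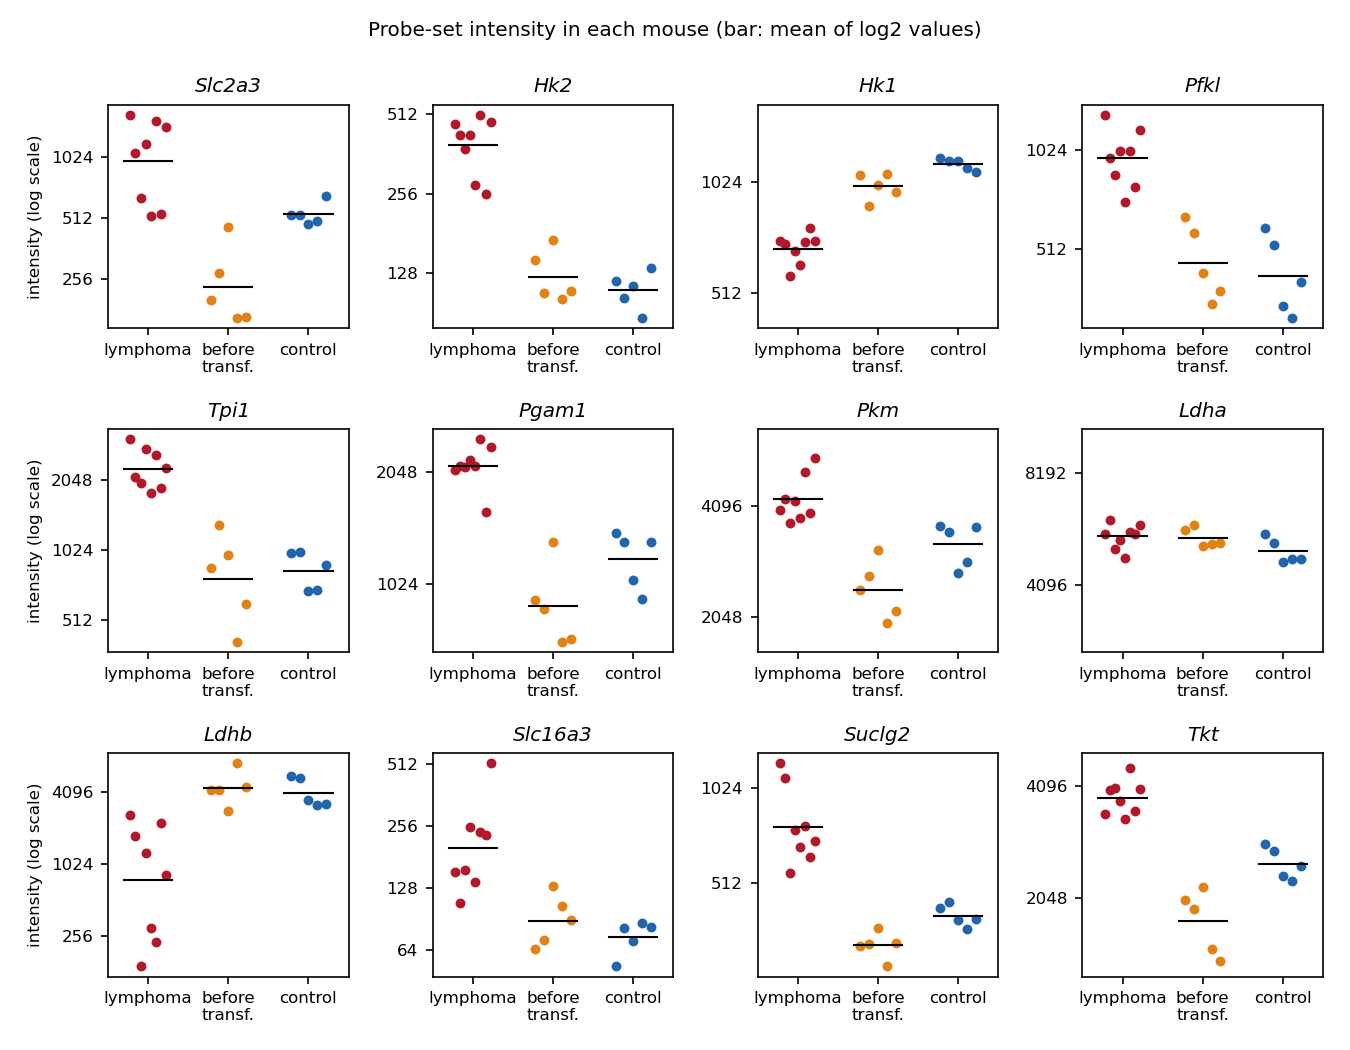
Probe-set intensity (log scale, one panel per gene) of 12 members in each mouse, with lymphomas at the left, mice before transformation in the middle and controls at the right. Bars are means of the log2 values. Slc2a3, Hk2, Pfkl, Tpi1, Pgam1, Suclg2 and Tkt sit above the 5 mice before transformation in all 8 lymphomas, Ldha overlaps throughout, and Ldhb spreads over an 18.5-fold range in lymphomas.

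Lactate dehydrogenase is a tetramer of A and B subunits, of which A favours lactate formation and B the return to pyruvate. Ldha had 4840, 5609 and 6121 units in the lowest, median and highest lymphoma, and 5740, 5946, 5213, 5281 and 5291 units before transformation. The groups overlapped, and the difference was 0.01 ± 0.07 with a 95% interval of -0.14 to 0.16 (limma adjusted p = 0.93). After quantile normalization Ldha was called higher at 0.30, and after median centring it was -0.01, so its sign depends on the scaling.

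Ldhb had 144, 1048 and 2653 units in the lowest, median and highest lymphoma. It had 4312, 4334, 2879, 7194 and 4512 units before transformation, above every lymphoma. Lymphomas 3, 6 and 5 were the lowest with 144, 228 and 304 units, and lymphomas 1 and 7 the highest with 2653 and 2272. Ldhb fell by 2.55 ± 0.65 on the log2 scale (5.86-fold lower, adjusted p = 0.00779), the largest difference among the members by size. All 26 alternatives kept the call, with the smallest fall (-0.997) among mice 1 and 2 alone. The largest (-4.95), under the sex term, is that of lymphoma 3 alone, the lowest tumour. Its other 3 probe sets gave -2.14, -2.23 and -2.65.

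Monocarboxylate transporters carry lactate across the plasma membrane. Slc16a3 (MCT4), the exporter of highly glycolytic cells, had 109, 193 and 515 units in the lowest, median and highest lymphoma. It had 64.6, 71.4, 130, 105 and 89.2 units before transformation, so that lymphoma 2 (109 units) fell within that range. Outside the lymphomas only mouse 3 before transformation lay above the filter on low signal (109 units). Slc16a3 was thus tested mainly because lymphomas were high. Slc16a3 rose by 1.16 ± 0.31 (2.24-fold, limma adjusted p = 0.0103), with lymphoma 8, which also had the highest macrophage and fibroblast marker sums, at the top. Without lymphoma 8 it stayed called, while mice 1 and 2 alone (0.92, adjusted p = 0.0576) and the sex term (0.81, adjusted p = 0.507) ended the call. Slc16a1 (MCT1) was not called (0.20, interval -0.21 to 0.61).

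The pyruvate dehydrogenase complex joins glycolysis to the TCA cycle, and its kinase Pdk1 inhibits it by phosphorylation. Among the 4 members at this step 1 was called. Dlat, the acetyltransferase core of the complex, had 293 to 554 units in lymphomas and 235 to 337 before transformation and rose by 0.53 ± 0.16 (adjusted p = 0.0176). Leaving out mouse 4 or mouse 5 before transformation ended that call (0.47 to 0.48, adjusted p of 0.0533 to 0.0539), as did the sex term (0.38). Pdha1 and Pdhb, the subunits of the first enzyme, were not called (-0.34, interval -0.69 to 0.00, and 0.03, interval -0.29 to 0.35).

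Pdk1 had 359, 611 and 1829 units in the lowest, median and highest lymphoma. Before transformation it had 414 and 698 units in mice 1 and 2 and 4581, 6051 and 3841 units in mice 3, 4 and 5. Controls had 890, 833, 1374, 1396 and 766 units. The mice before transformation thus lay in separate ranges by mouse number, below all controls in mice 1 and 2 and above all controls in mice 3 to 5. The pooled difference was -1.58 ± 0.59 (adjusted p = 0.0517), and it was 0.38 among mice 1 and 2 alone (adjusted p = 0.408) and -2.86, and called, among mice 3 and up alone. Pdk1 was also called lower with the next probe set (-2.10), after median centring (-1.60), in a fit of all 3 groups (-1.58) and with a block for the mouse-number set (-1.78). The interaction of group and mouse-number set in limma was -3.24 ± 0.71 for lymphomas against mice before transformation (adjusted p = 0.0267) and 2.74 ± 0.42 for mice before transformation against controls (adjusted p = 0.0287). It was called for 621 and 78 of the 14019 genes in those comparisons. In controls the mouse-number set and sex by signal coincide, with 1 and 2 female and 3 to 5 male, and cannot be told apart. In the next 2 probe sets mice 3 to 5 before transformation also lay above all other mice, and in the dimmest of the 4 they did not. Of 9 marker lists, 6 also divided these mice without overlap. The division was taken from Pdk1 after its values were seen, and its share over all genes was not counted. With 2 mice against 3, such a division often arises from the order of values alone, so the count is a description only. Proliferation sums were 25522 and 29993 in mice 1 and 2 and 19053 to 20298 in mice 3 to 5, and fibroblast and vessel sums were 2207 and 1597 against 1324 to 1509. The other 4 were lower in mice 1 and 2. Hypoxia sums were 3407 and 2753 in mice 1 and 2 and 3668 to 4062 in mice 3 to 5, and macrophage sums 3675 and 1792 against 3746 to 4885. Thymic epithelium sums were 1516 and 1179 against 1925 to 2676, and erythroid sums 689 and 761 against 894 to 945. The part of these lists in the Pdk1 result was not tested.

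**Figure D3:**
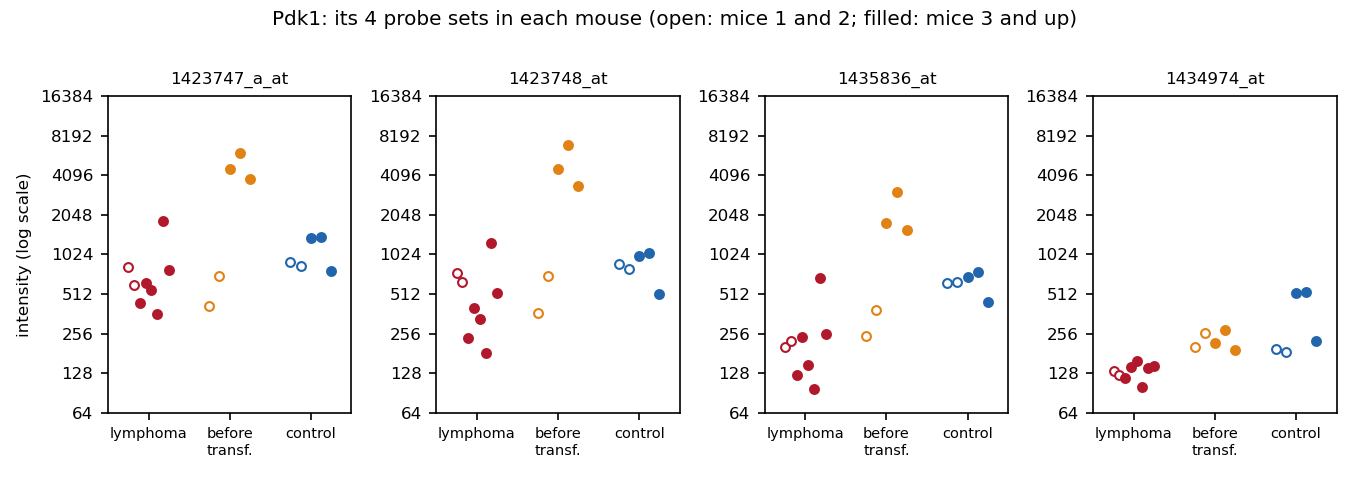
Intensity (log scale) of the 4 probe sets of Pdk1 in each mouse, from the brightest at the left to the dimmest at the right. Open points are mice 1 and 2 and filled points mice 3 and up of each group. In the first 3 panels the filled points before transformation lie above all others, and in the fourth they do not.

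In the TCA cycle 7 of 14 members were higher, 2 lower and 5 not called. Suclg2, the GTP-forming beta subunit of succinyl-CoA ligase, had 551, 725 and 1227 units in the lowest, median and highest lymphoma. It had 325, 329, 369, 279 and 331 units before transformation, below every lymphoma. Lymphomas 1 and 2 were the highest, with 1227 and 1101 units. The rise was 1.24 ± 0.18 (2.37-fold, limma adjusted p = 0.000139), or 0.76 with the sex term (adjusted p = 0.222). Of its partners in the ligase, the shared alpha subunit Suclg1 rose by 0.34 ± 0.13, a call that 9 of the 13 single mice could end when left out. The ATP-forming beta subunit Sucla2 was not called (0.31, interval -0.03 to 0.65).

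Fumarase (Fh1), which hydrates fumarate, rose by 0.68 ± 0.15 with 1395 to 2261 units in lymphomas and 931 to 1485 before transformation. Citrate synthase (Cs), the entry enzyme of the cycle, rose by 0.42 ± 0.10, with 1492 to 2060 units in lymphomas and 1204 to 1441 before transformation and no overlap. Both calls ended with the sex term, at 0.85 (adjusted p = 0.126) for Fh1 and 0.35 (adjusted p = 0.303) for Cs, and Cs was not called among mice 1 and 2 alone (0.51). Of the malate dehydrogenases, the mitochondrial Mdh2 rose by 0.26 ± 0.08 and the cytosolic Mdh1 fell by 0.40 ± 0.11 on the log2 scale. Mdh1 had 2575 to 3980 units in lymphomas and 3760 to 4592 before transformation. Quantile normalization (-0.13), the next probe set (-0.28) and mice 1 and 2 alone (-0.23) ended its call. Its other probe sets gave -0.47, 0.20 and -0.16. Median centring (0.24) and mice 1 and 2 alone (0.32) ended the call of Mdh2. Lymphoma 3 alone (the sex term) gave -0.46 for Mdh1 and 0.23 for Mdh2.

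Isocitrate dehydrogenase exists as an NAD-dependent complex (Idh3a, Idh3b, Idh3g) and as NADP-dependent enzymes of the cytosol (Idh1) and mitochondria (Idh2). Idh3a rose by 0.44 ± 0.09 in its brightest probe set, whereas the next gave -0.41 and passed as lower, so its direction rests on the probe set. Idh2 rose by 0.44 ± 0.15 (adjusted p = 0.0341), a call ended by leaving out any of 7 single mice (0.40 to 0.45). Idh1 (-0.52), Idh3b (-0.21) and Idh3g (0.37) were not called. In the oxoglutarate dehydrogenase complex, Ogdh fell by 0.28 ± 0.09 on the log2 scale (adjusted p = 0.0319), a call that 5 single mice could end when left out and that quantile normalization also ended (-0.18). Dlst, its succinyltransferase, was not called (0.12), and its next probe set passed as lower at -1.03.

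In the pentose phosphate pathway 1 of 4 measured members was called. Tkt, which rearranges sugars between this pathway and glycolysis, had 3340, 3857 and 4565 units in the lowest, median and highest lymphoma. It had 2021, 1910, 2186, 1491 and 1380 units before transformation. The groups lay far apart, the rise was 1.11 ± 0.12 (2.15-fold, limma adjusted p = 1.56e-05), and all 26 alternatives kept the call (0.91 to 1.28). The oxidative enzymes Pgd (phosphogluconate dehydrogenase, 0.19) and Pgls (phosphogluconolactonase, 0.33) and the transaldolase Taldo1 (-0.15) were not called, although the other 3 Pgd probe sets gave 0.50 to 0.61.

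Lymphomas were next compared with controls, a comparison that shares its lymphomas with the first. Of the 40 members, 15 were higher, 5 lower and 20 not called, and 17.4% of all genes were higher and 22.7% lower (40.2% in all). The median was 0.14 against -0.03 over all genes. No overlap was seen for 10 higher and 3 lower members, against 8.31% and 12.0% of all genes (20.3% together). With the sex term 16 members were called, and 13 of the 20 calls held under every alternative run.

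The largest rises against control were those of Hk2 (1.82 ± 0.18, adjusted p = 2.2e-06), Tpi1 (1.45 ± 0.15, adjusted p = 3.86e-06), Slc16a3 (1.43 ± 0.30, adjusted p = 0.00155) and Pfkl (1.19 ± 0.18, adjusted p = 0.000106). Hk2 had 120, 103, 114, 86.7 and 135 units in controls 1 to 5, and Tpi1 had 995, 1004, 682, 690 and 882. Pfkl had 593, 527, 345, 315 and 406 units in controls. All these lay below the lowest lymphoma. Slc16a3 had 53.5 (the floor), 81.6, 71.0, 86.6 and 82.6 units in controls, below every lymphoma. These control values also lay under the filter on low signal (109 units), which Slc16a3 passed mainly through the lymphomas. Mice 1 and 2 alone gave 0.96 for Slc16a3 and ended its call.

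Fh1 rose by 0.95 ± 0.14, Suclg2 by 0.93 ± 0.17, Pgam1 by 0.83 ± 0.12, Aldoa by 0.66 ± 0.14 and Tkt by 0.59 ± 0.09 against control, each without overlap. Suclg2 had 427, 447, 391, 366 and 394 units in controls, Pgam1 1405, 1331, 1047, 933 and 1326, and Tkt 2858, 2728, 2341, 2270 and 2484. Pgd passed here at 0.57 ± 0.12, with 962 to 1513 units in lymphomas and 713 to 974 in controls. Pkm rose by 0.40 ± 0.11 against control values of 3610, 3479, 2700, 2882 and 3579 units, and its call ended with the sex term (0.29, adjusted p = 0.0897) and among mice 1 and 2 alone (0.22). Idh3a rose by 0.34, with its next probe set at -0.38, and Dlat by 0.49 and Aldoc by 0.37. Single mice ended the calls of Dlat (controls 3 or 4, 0.41 to 0.45) and Aldoc (lymphomas 4 or 8 or controls 2, 3 or 5, 0.34 to 0.36).

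Slc2a3 had 530, 529, 480, 497 and 657 units in controls, a range that lymphomas 5, 7 and 3 (524, 534 and 639 units) fell into. It rose by 0.86 ± 0.28 (1.82-fold, limma adjusted p = 0.0242), and leaving out control 3 or 4 ended the call (0.82 to 0.84), as did mice 3 and up alone (0.71) and the sex term (0.70). The members lower than control were Ldhb (-2.43 ± 0.65, adjusted p = 0.00772), Hk1 (-0.76 ± 0.09), Ogdh (-0.46 ± 0.08), Mdh1 (-0.46 ± 0.11) and Pdha1 (-0.41 ± 0.15). Ldhb had 5612, 5408, 3518, 3235 and 3308 units in controls, above all 8 lymphomas. The Pdha1 call ended when any of 8 single mice was left out and under 6 other alternatives, among them mice 1 and 2 alone (-0.09). Cs, Idh2, Suclg1 and Mdh2, called against mice before transformation, were not called against control.

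**Figure D4:**
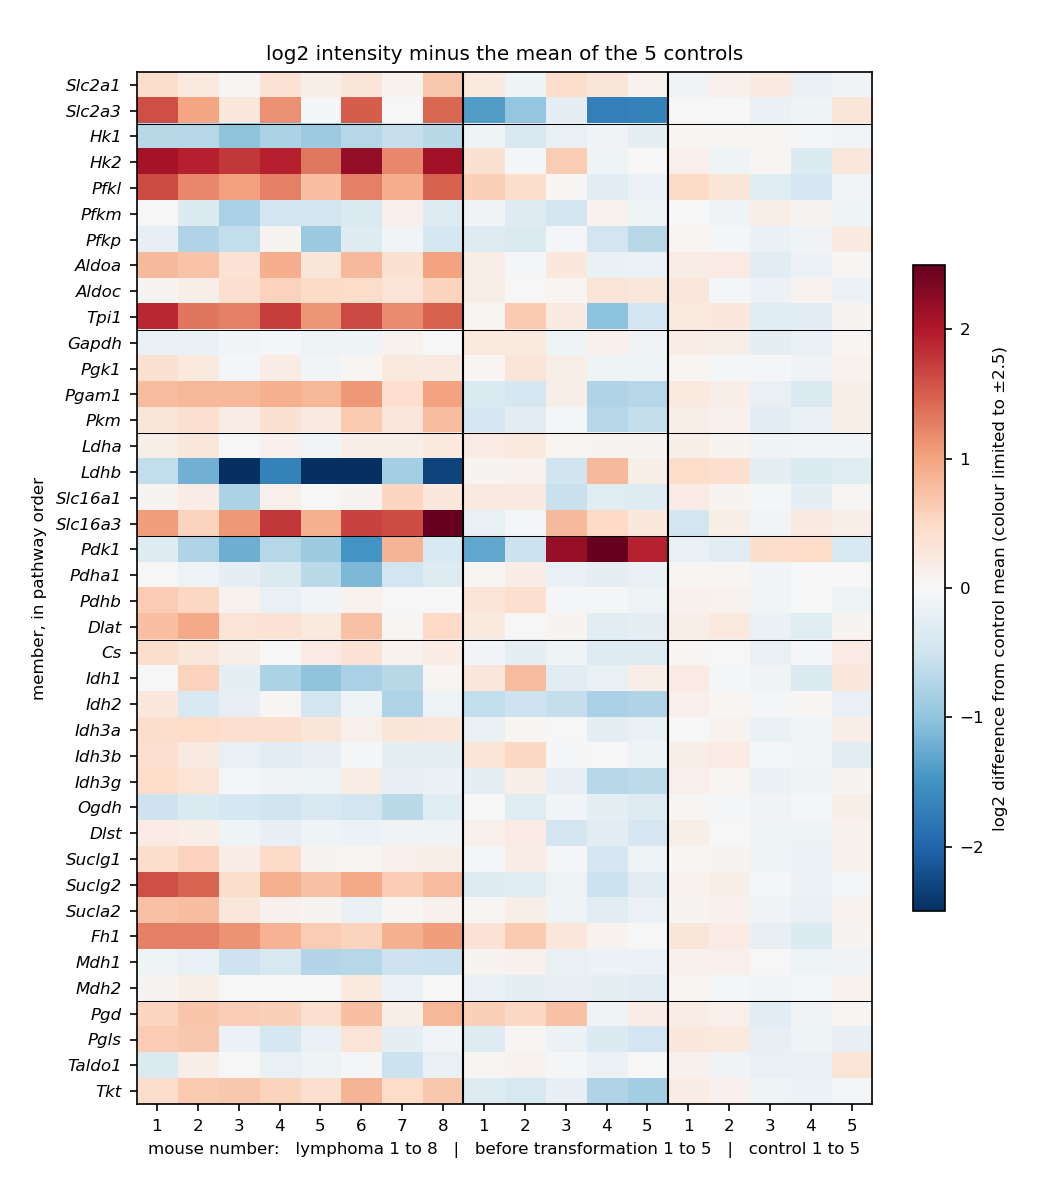
Log2 intensity of each measured member (top to bottom in pathway order) in each mouse (left to right) minus the mean of the 5 controls, with red above and blue below the control mean and colour limited at 2.5. Hk2, Tpi1, Pfkl, Pgam1 and Tkt are red in all 8 lymphomas, Ldhb is blue in all 8 with the deepest values in lymphomas 3, 5 and 6, and Pdk1 is red in mice 3, 4 and 5 before transformation.

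Thymocytes before transformation were then compared with controls. None of the 40 members was called higher in limma and 4 were lower, while 4.43% of all genes were higher and 6.24% lower (10.7% in all), so the called share of members, 10.0%, was near that of all genes. The median was -0.07, against -0.02 over all genes. No overlap was seen for 5 members, all lower, against 4.36% of all genes higher and 6.28% lower (10.6% together). The 4 were Slc2a3, Idh2, Tkt and Mdh2. Granulocyte markers moved with this comparison: 4 of 6 were lower before transformation without overlap, and their summed intensity ranged from 1196 to 1907 before transformation and from 2768 to 9176 in controls, a difference whose part in these results was not tested. The count was 8 without mouse 3 before transformation and 2 without mouse 5 before transformation or without control 1, 2 or 5.

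Slc2a3 fell by 1.19 ± 0.25 on the log2 scale (2.29-fold lower, limma adjusted p = 0.00943). The highest mouse before transformation, mouse 3 with 460 units, lay under the lowest control with 480. Among mice 3 and up alone the call ended (-1.21, adjusted p = 0.104). Idh2 had 803, 1228 and 1644 units in the lowest, median and highest lymphoma. It had 898, 953, 912, 778 and 814 units before transformation and 1499, 1420, 1347, 1396 and 1213 in controls. It fell by 0.66 ± 0.09 on the log2 scale before transformation (adjusted p = 0.000353), with all 5 mice below all controls, and lost the call only with its next, dimmer probe set (-0.44).

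Tkt fell by 0.51 ± 0.13 on the log2 scale before transformation (adjusted p = 0.0257), also without overlap. Mdh2 had 2597, 2903 and 3392 units in the lowest, median and highest lymphoma. It had 2582, 2420, 2511, 2455 and 2391 units before transformation and 2991, 2796, 2762, 2798 and 3058 in controls. All mice before transformation lay below all controls, and Mdh2 fell by 0.22 ± 0.06 on the log2 scale (adjusted p = 0.0305). The calls of Tkt and Mdh2 did not hold when some single mice were left out (5 mice for Tkt, -0.52 to -0.42, and 6 for Mdh2, -0.23 to -0.20). Hk1, without overlap at -0.20 ± 0.08, did not pass (adjusted p = 0.13).

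The balance between paired genes was described as the log2 ratio of their intensities within each mouse, for 10 pairs. A ratio between different probe sets has no absolute meaning, and only its differences between mice can be read. Hk2 over Hk1 had a median of -0.62 in lymphomas (range -1.59 to -0.48), -3.04 before transformation (-3.39 to -2.55) and -3.35 in controls (-3.69 to -3.02). The lymphomas thus stood apart from both other groups. Ldha over Ldhb had medians of 2.47, 0.41 and 0.43 in lymphomas, before transformation and in controls, and ranged from 1.08 to 5.15 in lymphomas. All 8 lymphomas lay above the other mice, whose highest value was 0.86.

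Pfkp over Pfkl had medians of -0.57 in lymphomas, 0.56 before transformation and 1.24 in controls, without overlap between lymphomas (up to 0.14) and the other groups (from 0.17). Suclg2 over Sucla2 had medians of -0.21, -1.15 and -0.85 in the same order, and Mdh2 over Mdh1 medians of -0.10, -0.68 and -0.61. In both the lymphomas lay above all other mice. For Mdh2 over Mdh1 the margin was narrow, with lymphomas from -0.392 and controls up to -0.394. Slc2a3 over Slc2a1 had a median of 1.26 in lymphomas, -1.14 before transformation and 0.57 in controls. Here the lymphomas (0.31 to 1.71) overlapped the controls (0.12 to 0.88) but not the mice before transformation (-1.51 to -0.16). Pfkm over Pfkl had medians of -1.84 in lymphomas, -0.71 before transformation and -0.26 in controls. The lymphomas (up to -0.979) lay narrowly below the mice before transformation (from -0.966) and below the controls (from -0.709). In the other 3 pairs the lymphomas overlapped both groups. Slc16a3 over Slc16a1 had medians of -3.44 in lymphomas, -4.22 before transformation and -4.72 in controls. Aldoa over Aldoc had medians of 3.88, 3.49 and 3.44 and Idh2 over Idh1 medians of 2.93, 1.88 and 2.84 in that order of groups.

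**Figure D5:**
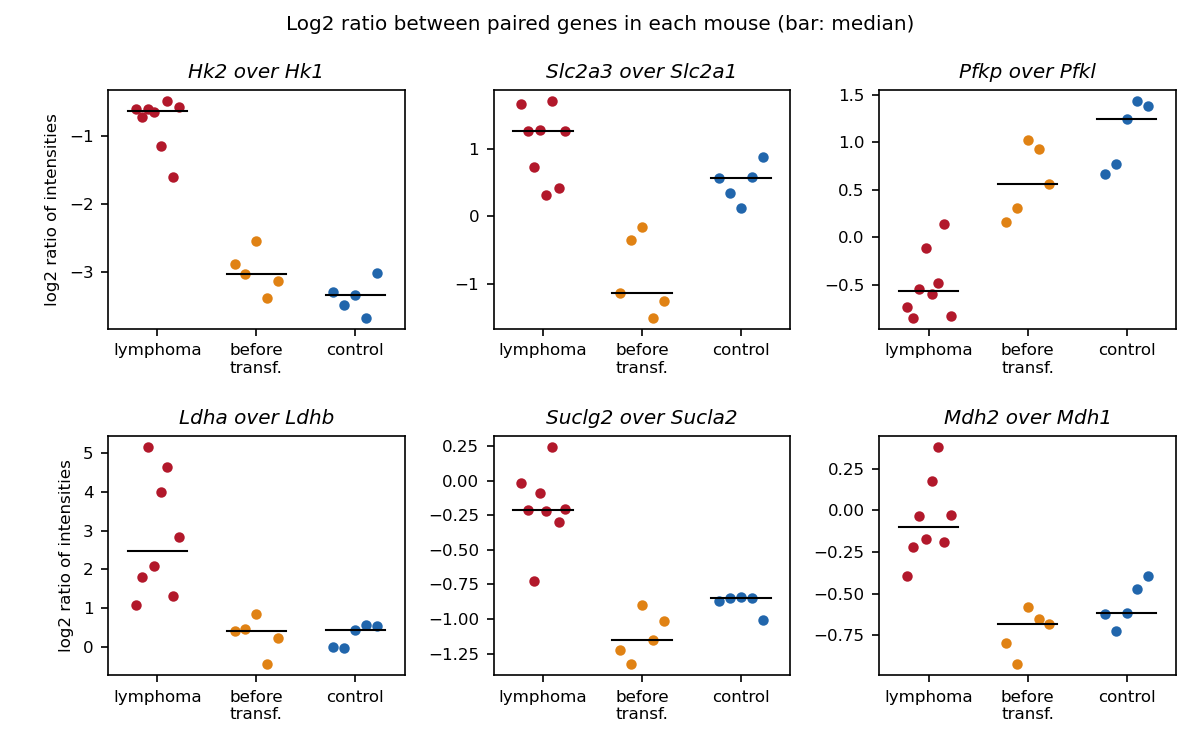
Log2 ratio of intensities between paired genes in each mouse (points) with group medians (bars), lymphomas at the left, mice before transformation in the middle and controls at the right. The lymphomas lie apart from both other groups for Hk2 over Hk1, Ldha over Ldhb, Pfkp over Pfkl, Suclg2 over Sucla2 and, by a narrow margin, Mdh2 over Mdh1. They overlap the controls for Slc2a3 over Slc2a1.

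The lymphomas differed among themselves. The SD of log2 intensity across the 8 lymphomas was 1.62 for Ldhb, 0.71 for Pdk1, 0.70 for Slc16a3 and 0.69 for Slc2a3, while for Gapdh, Idh3a, Ldha and Ogdh it was 0.09 to 0.11. The median SD over members was 0.26 in lymphomas, 0.22 before transformation and 0.17 in controls. Lymphomas 3, 5 and 7 were the lowest 3 for 9 of 40 members (Slc2a1, Slc2a3, Hk2, Pfkl, Aldoa, Tpi1, Pkm, Dlat and Suclg2), an order found for 1.72% of all genes tested. Lymphomas 1 and 2 were the highest 2 for 13 of 40 members, most of them of pyruvate dehydrogenase and the TCA cycle, and for 21.0% of all genes. Both orders were picked out after the values were seen and carry no test.

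Myc, whose protein binds the E box CACGTG as a partner of Max, had 1250 to 2489 units in lymphomas, 132 to 517 before transformation and 437 to 488 in controls, and rose by 3.02 ± 0.26 against mice before transformation (limma adjusted p = 2.6e-06). Of 7 measured genes known to respond to hypoxia, 2 were higher (Bnip3 and Adm) and 1 lower (Ero1a) in that comparison, a share of 42.9% against 34.5% of all genes. The 250 bases before each start site were searched on both strands for CACGTG, for ACGTG and GCGTG, the cores to which hypoxia-inducible factors bind, and for the TCF/LEF words CTTTGAT and CTTTGAA. Windows with CACGTG also count for ACGTG, which it contains. Promoters of 41 of the 43 genes, 60 windows in all, were listed in RefSeq (build GRCm38.p6).

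CACGTG lay in windows of 4 genes (Ldha, Ogdh, Pfkm and Slc16a1), which is 10.0% of member windows against 6.02% of all promoters and 7.69% of those of tested genes. Ogdh accounts for several of these windows, and those starting at chr11:6292308 and chr11:6292329 overlap and hold the same site. Windows of the same gene were counted separately throughout. ACGTG lay in windows of 14 genes, 21 of the 60 member windows, against 16.6% of all and 20.6% of tested-gene promoters. Of these genes, Aldoa, Hk2, Pgam1, Pkm and Slc16a3 were called higher in lymphomas against mice before transformation, and Mdh1 and Ogdh lower. Idh3g, Ldha, Pdhb, Pfkm, Pgk1, Slc16a1 and Slc2a1 were not called. Members called higher with no ACGTG in their windows were Tpi1, Pfkl, Tkt, Suclg2, Fh1, Cs, Dlat, Mdh2, Suclg1 and Idh2. GCGTG lay in 56.7% of member windows against 28.2% and 40.9%. CTTTGAT was found for Taldo1 alone and CTTTGAA for none. A match is a string of letters and not a shown binding site. Of the 4 genes with CACGTG, Ogdh was called lower in lymphomas against mice before transformation, a call that quantile normalization ended. Ldha, Pfkm and Slc16a1 were not called, although Ldha passed as higher after quantile normalization. Whether Myc acts on any member was not tested.

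The windows of 4 members are printed to set genes that rose (Hk2 and Pgam1) beside the lactate dehydrogenase genes. They do not stand for the members as a set, since Mdh1 and Ogdh, called lower, hold ACGTG and Tpi1, Pfkl and Tkt, called higher, do not. Capitals mark ACGTG, its complement CACGT, or both where they overlap. Hk2 is shown at chr6:82774455-82774704 (minus strand) and Pgam1 at chr19:41911621-41911870 (plus strand). Ldha is shown at chr7:46845554-46845803 (plus strand) and Ldhb at chr6:142507958-142508207 (minus strand). Each window is read 5′ to 3′ on GRCm38.p6 and ends at the base before a start site. That of Ldha lies within the gene's listed span (chr7:46842274-46855627), not at its upstream end.
Hk2: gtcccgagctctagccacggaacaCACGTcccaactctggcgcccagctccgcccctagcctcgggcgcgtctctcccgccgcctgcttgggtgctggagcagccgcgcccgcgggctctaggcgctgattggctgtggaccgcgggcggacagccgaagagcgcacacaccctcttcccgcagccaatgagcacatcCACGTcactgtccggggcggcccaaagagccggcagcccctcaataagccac
Pgam1: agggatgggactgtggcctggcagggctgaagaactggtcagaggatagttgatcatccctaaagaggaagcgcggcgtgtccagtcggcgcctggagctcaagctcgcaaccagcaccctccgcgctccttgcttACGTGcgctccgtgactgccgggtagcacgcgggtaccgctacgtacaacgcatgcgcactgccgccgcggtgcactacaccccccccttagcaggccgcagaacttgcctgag
Ldha: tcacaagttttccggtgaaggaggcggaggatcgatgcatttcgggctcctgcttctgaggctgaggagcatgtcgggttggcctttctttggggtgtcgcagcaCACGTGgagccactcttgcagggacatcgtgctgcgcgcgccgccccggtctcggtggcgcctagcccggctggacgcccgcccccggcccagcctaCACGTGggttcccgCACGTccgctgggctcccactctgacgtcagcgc
Ldhb: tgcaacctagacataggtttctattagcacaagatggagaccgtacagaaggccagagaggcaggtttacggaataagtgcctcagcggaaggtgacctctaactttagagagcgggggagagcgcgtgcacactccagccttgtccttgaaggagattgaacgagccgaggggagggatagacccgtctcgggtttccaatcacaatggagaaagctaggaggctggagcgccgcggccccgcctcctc
Hk2 holds CACGT at 2 places and Pgam1 holds ACGTG at 1 place. Ldha, which was not called, holds CACGTG at 2 places, beginning 145 and 48 bases before the start, and a further CACGT, and Ldhb, which fell, holds no ACGTG.

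Other genes of these pathways were read from a list of 57, of which 51 had a probe set and 44 passed the filter. In lymphomas against mice before transformation 12 were higher and 7 lower, against 13 and 8 in lymphomas against controls and 1 and 2 in mice before transformation against controls. These are 43.2%, 47.7% and 6.82% of the 44, against 34.5%, 40.2% and 10.7% of all genes. Their medians were 0.05, 0.09 and -0.03. The largest rise was that of Got1, the cytosolic aspartate aminotransferase of the malate-aspartate shuttle, at 2.00 ± 0.23 against mice before transformation (limma adjusted p = 2.44e-05) and 2.12 ± 0.23 against control. It had 731 to 2065 units in lymphomas, 222 to 487 before transformation and 200 to 425 in controls, and no lymphoma overlapped. Shpk, a sedoheptulose kinase of the pentose phosphate pathway, had 99.3 to 187 units in lymphomas and was held at the floor in 4 mice before transformation (the other had 97.1 units) and in 5 controls. The rise was therefore at least 1.24 and at least 1.41 on the log2 scale. No mouse outside the lymphomas lay above the filter (109 units), so Shpk was tested only because lymphomas were high. Its rise is given as a description.

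Ldhc, the testis-type lactate dehydrogenase subunit, rose by 0.99 and Pdk3, another pyruvate dehydrogenase kinase, by 0.74 against mice before transformation. Against control Ldhc rose by 1.02 and the mitochondrial malic enzyme Me2 by 0.70. H6pd, the hexose-6-phosphate dehydrogenase of the endoplasmic reticulum, had 219 to 594 units in lymphomas, 1015 to 1874 before transformation and 798 to 1345 in controls, without overlap. It fell by 2.07 ± 0.25 on the log2 scale against mice before transformation and by 1.72 ± 0.23 against control. The hexokinase Hk3 (-0.97 and -0.93), the insulin-responsive transporter Slc2a4 (-0.92 and -1.23) and the cytosolic malic enzyme Me1 (-0.78 and -0.56) were lower in both comparisons. Before transformation the glycerol-3-phosphate dehydrogenase Gpd2 rose by 0.54 against control, and Rpia (ribose-5-phosphate isomerase, -0.37) and Sdhb (a succinate dehydrogenase subunit, -0.27) were lower.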

How the data were processed

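Total RNA of 18 mice was measured on Affymetrix mouse 430 arrays, 1 array per mouse. The deposited linear intensity of each probe set came from dChip, per the series' design text. Its version, its model and how arrays were scaled are not stated in what was used here. The mean log2 intensity of the arrays' spike-in control probe sets was 9.95 to 10.68 in lymphomas. It was 10.74 to 11.24 before transformation and 10.75 to 11.00 in controls, so lymphomas lay below all other mice. The part of this difference in the results was not tested. Of 811818 values, 9775 (1.20%) were blank, and 605 of 606 negative values lay on the array of control 1. Blanks, and anything under the 20th percentile (53.5), were raised to that floor before log2. Of 45101 probe sets, 34958 had 1 symbol in the platform annotation, 932 several and 9211 none, and those with 1 were used. Each gene was read from its probe set with the highest mean, and the 14019 genes above the 40th percentile (109) on at least 5 arrays were tested.

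Each comparison was fitted on its 2 groups with limma 3.58.1 in R 4.3.3 (lmFit, eBayes with trend, two-sided) with p-values adjusted by Benjamini-Hochberg over the 14019 genes, after a test on simulated data. Groups and mouse numbers come from the labels, and the design text calls the mice independent. Mouse numbers were not taken as pairs: deviations of same-numbered mice from their group means correlated at -0.14 to 0.40. Those of different-numbered mice correlated at -0.38 to 0.39. Lymphoma 2 correlated at 0.30 and 0.40 with mice 1 and 2 before transformation and at -0.35 to -0.21 with mice 3 to 5. Control 2 showed no such division (-0.044 to 0.076). The main fits hold no term for the mouse-number set, which was run as an alternative. Members, lists and alternatives were chosen with earlier results of these data known. Every member is named, and values in every mouse (for the 8 lymphomas the lowest, median and highest) are given for members called in lymphomas against mice before transformation with a difference of at least 0.8 and for those called before transformation. Alternatives covered scaling, floor, blanks, filter, trend, a shared fit, the next probe set, blocks, mouse-number sets, a sex term and leaving out each mouse. The interaction with the mouse-number set was added after the data were seen. The number of arrays limits the precision.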

Additional observations from a re-analysis of the deposited data

Results flagged for a closer look

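In Pdk1 the difference between groups was not the same in mice 1 and 2 as in mice 3 and up. The interaction in limma was -3.24 on the log2 scale for lymphomas against mice before transformation (adjusted p = 0.0267) and 2.74 for mice before transformation against controls (adjusted p = 0.0287). Both comparisons share the mice before transformation. Controls 1 and 2 had female and controls 3 to 5 male signals, so in controls the mouse-number set and sex cannot be told apart. The cause was not tested.

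Of 120 sets of values (each of 40 members in each group), 2 held a mouse far from the others by Dixon's criterion, by which chance picks about 1 group in 20. Pgam1 was lowest in lymphoma 7 with 1596 units, against 2077 to 2515 in the other lymphomas. Slc16a1 was lowest in lymphoma 3 with 1192 units, against 2039 to 2997 in the others.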

How the results depend on the processing

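Leaving out each mouse in turn, 17 to 23 members were called in lymphomas against mice before transformation, 16 to 22 in lymphomas against controls and 2 to 8 in mice before transformation against controls. With the sex term 5 members were called in the first comparison, 16 in the second and 2 in the third. In the third, 2 were also called after median centring, with the next probe set and among mice 3 and up alone (Pdk1 higher, Idh2 lower). The replicate block gave 22, 21 and 3 calls in the 3 comparisons and a block for the mouse-number set gave 25, 25 and 6. Mice 1 and 2 alone gave 15, 23 and 6. Quantile normalization gave 23, 26 and 4 calls. Calls held under all alternatives run for 4 of 21 members (Hk2, Pgam1, Ldhb and Tkt), 13 of 20 and 0 of 4. Directions turned with the next probe set for Idh2 (-0.030), Idh3a (-0.41) and Dlst (-1.03) in the first comparison and for Idh3a (-0.38) in the second. Among mice 1 and 2 alone they turned for Pdk1 in the first (0.38) and the third (-0.68) comparison, Aldoc in the second (-0.0042) and Ldhb in the third (-0.35). The Pdk1 turn in the first comparison was of a difference called neither as reported nor among mice 1 and 2 alone. In the third, only 1 of the Pdk1 and Ldhb turns was called among those mice. Turns not listed were of differences called neither as reported nor under the alternative. The cause of these turns was not tested. In the third comparison a value with the sex term is the mean before transformation minus that of controls 3 to 5, the controls with male signals. The sex term leaves 1 lymphoma with male signals, so it rests on few mice. In the first comparison it cannot separate sex from that lymphoma, and the 4 of 21 members above had to pass it too. No detection calls were used, and values near the floor understate differences.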

Other observations

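Of the 7 measured members on chromosome 6, 5 were higher (Slc2a3, Hk2, Tpi1, Suclg1 and Suclg2), 1 was lower (Ldhb) and 1 was not called (Gapdh) in lymphomas against mice before transformation. Of the 754 tested genes there 15.9% were higher and 19.0% lower. This grouping was noticed after the values were seen and carries no test.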
